A study of Mus musculus with 8 samples.

Results

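Rows of the gene count table were chosen by a list of symbols, made with earlier results of these data known, to cover claudins, connexins and pannexins, the tight junction plaque and its other membrane proteins, and the PAR and Crumbs polarity proteins. The names matched 62 of 32531 rows. Of these, 41 had 10 or more counts in 4 or more libraries and were tested, and 21 did not, 6 of them with 0 counts in every library (Cldn13, Cldn16, Cldn17, Cldn18, Gja3 and Gja10). Patj and Pals1 stood in the table only under their older symbols, Inadl and Mpp5, and are given with the wider pathway.

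Islets came from 4 control and 4 β-tetO-NICD mice. All 8 mice carried RIP-Cre, in which the Ins2 promoter drives Cre, together with the Cre-dependent Rosa26-rtTA allele, which also encodes EGFP, and all received Dox for 8 weeks. β-tetO-NICD mice carried tetO_NICD in addition, so that Dox switched on NICD, the intracellular domain through which activated Notch1 signals, in their β cells, whereas controls lacked it. The mice were of a mixed C57BL/6J, 129X1/SvJ and BALB/c background, and their ages are not in the labels. RNA was from whole islets, which contain other endocrine, vascular and remaining exocrine cells, so that fewer cells of a type and less RNA per cell cannot be told apart.

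Tight junctions seal the space between neighbouring epithelial cells. Claudins and other multi-pass or immunoglobulin-like membrane proteins form the strands, and plaque proteins such as ZO-1 tie them to actin. Gap junctions are channels built of connexins that pass ions and small molecules from cell to cell, and connexin 36, encoded by Gjd2, couples β cells electrically so that their calcium oscillations are synchronous. The PAR and Crumbs complexes set the apical and lateral sides of polarised cells and help place the junctions between them.

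The libraries held 21701223 to 26413146 counts. Values are CPM, library-size-scaled counts with TMM factors, and a floor of 3 counts corresponded to 0.0995 to 0.151 CPM, for counting error only. Notch1, whose intracellular part the transgene encodes, had a control mean of 56.9 ± 10.7 CPM and a β-tetO-NICD mean of 1029.9 ± 331 CPM (SD, n = 4 each; log2 fold change 4.18, SE 0.30, adjusted p = 0.000102 in edgeR). Libraries differed in other measures too. Each gene's log2 CPM relative to its mean over all libraries was correlated with transcript length across 14659 genes, with Spearman's rho of 0.418, 0.467 and 0.497 for controls 1, 2 and 4. β-tetO-NICD library 1 had a rho of 0.446, whereas it was -0.174 for control 3 and between -0.521 and -0.360 for β-tetO-NICD libraries 2, 4 and 5. The Y-linked gene Eif2s3y was detected in controls 2 and 4 and β-tetO-NICD library 5, with 1300 to 1527 counts, whereas the other 5 libraries each had 0 or 1. The study's methods describe islets of male mice for gene expression. Summed CPM of 6 α-cell marker genes ranged from 12335 to 43379 in controls and from 55692 to 70621 in β-tetO-NICD islets, and that of 11 β-cell marker genes from 158515 to 198648 and from 72987 to 172594. In edgeR, Irx2 of the α-cell genes and Hhex of the δ-cell genes rose, and 4 of the β-cell genes (Ucn3, Slc2a2, G6pc2 and Ero1lb) fell. The acinar, duct, endothelial, mesenchymal, Schwann and leukocyte lists overlapped between the groups, with none of their tested genes past the threshold. The part of these differences in the results was not tested except where a value is given.

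Of the 41 tested members, 6 passed a threshold of 0.05 on the adjusted p, from the quasi-likelihood test of edgeR with Benjamini-Hochberg adjustment over all tested genes. Cldn6 was higher in β-tetO-NICD islets, and Cldn2, Cldn8, Crb1, Pard3 and Pard3b were lower, with fold changes between 1.71 and 3.67. That share, 14.6%, stood beside 6.76% of all 15082 tested genes, 4.19% higher and 2.57% lower. At an unadjusted p under 0.05 the shares lay closer, with 14 members (34.1%) beside 31.6% of all genes. Values of the groups did not overlap for 9 members (21.95%), beside 16.1% of all genes. The median log2 fold change of the members was 0.09, against 0.00071 over all genes, and 23 were positive and 18 negative. The 6 calls, with adjusted p between 0.0209 and 0.0454, depended on the libraries included. DESeq2 called 11 members, beside 18.2% of all genes. With each library left out in turn, no member passed without control 1, control 2, β-tetO-NICD library 2 or β-tetO-NICD library 4. Those edgeR fits called 319 to 503 of 14869 to 14977 tested genes. In them, 12 to 14 members had an unadjusted p under 0.05, beside 20.4% to 24.5% of all genes. Within the 5 libraries lacking Eif2s3y counts, 0 of 41 members passed in edgeR, beside 0.756% of all genes, and 11 (26.8%) had an unadjusted p under 0.05, beside 12.8% of all genes. The 3 libraries with Eif2s3y counts include a single β-tetO-NICD library and were not fitted.

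**Figure D1:**
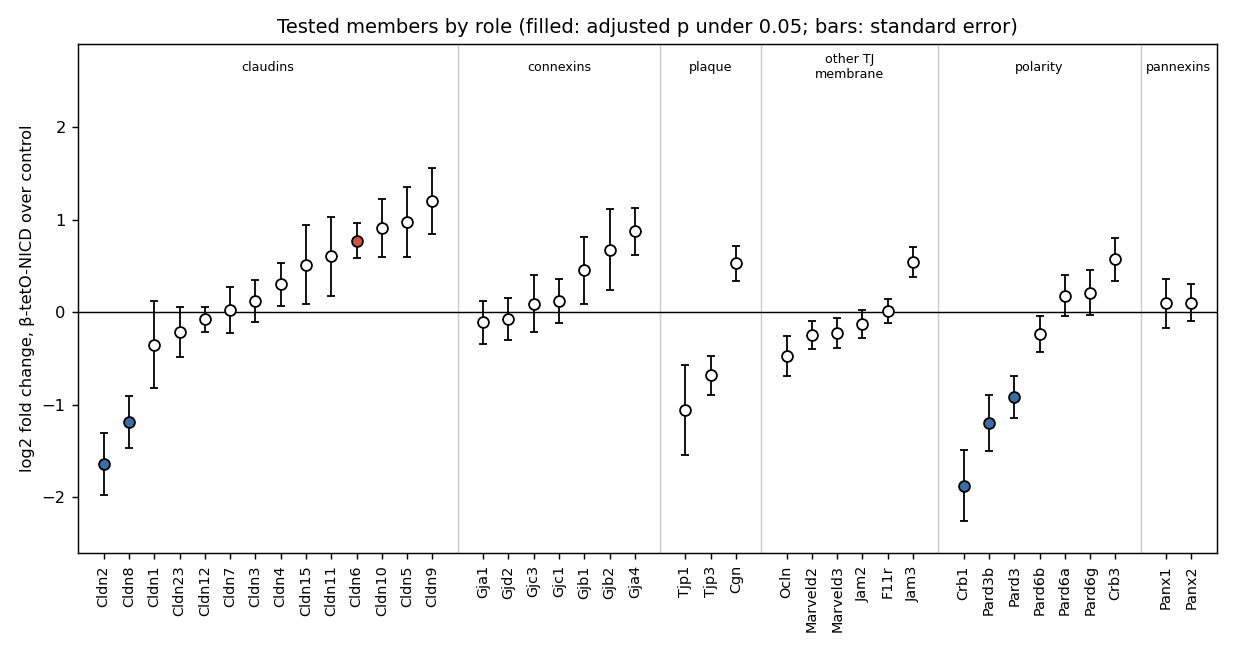
Log2 fold change (β-tetO-NICD over control, vertical axis) of 39 of the 41 tested members, grouped by role along the horizontal axis, with standard errors as bars and filled points for an adjusted p under 0.05. The filled points are Cldn6 above 0 and Cldn2, Cldn8, Crb1, Pard3 and Pard3b below it, and no connexin, plaque protein or pannexin is filled.

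Claudins form the paracellular seal or, in some members, channels through it. Of 23 claudin rows, 14 were tested. Cldn6 rose, Cldn2 and Cldn8 fell, and 11 did not pass, a called share of 21.4% beside 6.76% of all genes. The median log2 fold change was 0.21, with 9 positive and 5 negative. At an unadjusted p under 0.05 there were 4 higher and 2 lower, beside 31.6% of all genes. DESeq2 called 3 higher and 2 lower, beside 18.2% of all genes. Cldn8, a claudin known from barrier-forming epithelia of the kidney and colon, was at 69.9, 82.3, 69.1 and 116 CPM in controls 1 to 4 whereas β-tetO-NICD libraries 1, 2, 4 and 5 had 30.5, 49.6, 46.1 and 21.6 CPM. Every β-tetO-NICD library lay below every control. The mean went from 84.3 ± 21.9 to 37.0 ± 13.2 CPM (SD, n = 4), a 2.28-fold decrease (log2 fold change -1.19, SE 0.28, adjusted p = 0.0357). In the 5 libraries without counts of the Y-linked gene Eif2s3y the log2 fold change was -0.73 and did not pass. Cldn8 lies at chr16:88560828-88563183 on the minus strand (GRCm38, GENCODE M21), and its longest transcript has 2356 bases.

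Cldn2 encodes a claudin that makes cation- and water-permeable pores in leaky epithelia. It was at 6.78, 11.5, 5.26 and 4.91 CPM in controls and at 3.18, 1.75, 2.49 and 1.66 CPM in β-tetO-NICD libraries. All 4 β-tetO-NICD values were under the lowest control. Means were 7.11 ± 3.03 and 2.27 ± 0.713 CPM (SD, n = 4), so that Cldn2 fell 3.12-fold (log2 fold change -1.64, SE 0.34, adjusted p = 0.0223). The gene is at chrX:139800828-139811386 on the plus strand.

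Cldn6, a claudin of embryonic epithelia, moved the other way. Control libraries had 14.3, 10.3, 15.3 and 9.34 CPM and β-tetO-NICD libraries 21.3, 19.0, 24.1 and 19.6 CPM, with no overlap. The mean rose 1.71-fold from 12.3 ± 2.92 to 21.0 ± 2.30 CPM (SD, n = 4; log2 fold change 0.77, SE 0.19, adjusted p = 0.0431). With an offset for each library's trend with transcript length, the log2 fold change of Cldn6 was 0.48 and the adjusted p from edgeR 0.149. Over all 23 alternatives its adjusted p ran from 0.00467 to 0.513. Cldn6 (chr17:23679249-23682446, plus strand) ends 137 bases before the end of Cldn9 (chr17:23682584-23684026, minus strand), its neighbour on the opposite strand. Cldn9 was at 1.43, 0.760, 2.10 and 0.974 CPM in controls and at 2.42, 2.45, 4.08 and 3.17 CPM in β-tetO-NICD libraries. Its groups did not overlap either, but it did not pass in edgeR, whereas DESeq2 called it (edgeR log2 fold change 1.20, SE 0.36, adjusted p = 0.0686). Both genes are short, and 0.407% of the 31-base words in Cldn6 transcripts and 0.495% of those in Cldn9 transcripts occur in a transcript of another gene.

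The claudins with the most counts beside Cldn8 were Cldn4 and Cldn7, both common in simple epithelia. Cldn4 was at 71.8, 64.1, 84.4 and 37.2 CPM in controls and at 82.8, 83.6, 65.0 and 85.4 CPM in β-tetO-NICD libraries (log2 fold change 0.30, SE 0.23, adjusted p = 0.379). Cldn7 was at 60.6, 42.7, 78.2 and 55.6 CPM and at 37.4, 71.5, 57.3 and 74.9 CPM (log2 fold change 0.02, SE 0.25, adjusted p = 0.956). For both, the groups overlapped. The other 8 tested claudins, with 0.461 to 34.2 CPM, had log2 fold changes from -0.35 (Cldn1) to 0.98 (Cldn5, the endothelial claudin), none of which passed in edgeR. Of these, Cldn5 and Cldn10 had an unadjusted p under 0.05, and DESeq2 called Cldn10. The 9 untested claudins had at most 7 counts in any library.

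Levels of different claudins were compared as CPM per kb of the longest annotated transcript. Summed over claudins, this level averaged 162.2 in controls and 159.4 in β-tetO-NICD islets. In controls, Cldn7 made up 27.1% of that sum, followed by Cldn8 with 22.6% ± 7.81 (SD, n = 4), Cldn4 with 21.6%, Cldn3 with 12.6%, Cldn12 with 5.10% and Cldn6 with 4.62%. Cldn7, Cldn8 and Cldn4 could not be put in order beyond their spread. In β-tetO-NICD islets, Cldn7 held 27.9% and Cldn4 27.6%, and Cldn3 (14.1%) came before Cldn8, which held 9.86% ± 3.27 (SD, n = 4), and Cldn6 with 8.24%. Cldn8 thus went from 15.8% to 33.2% across controls to 5.45% to 12.8% across β-tetO-NICD libraries.

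**Figure D2:**
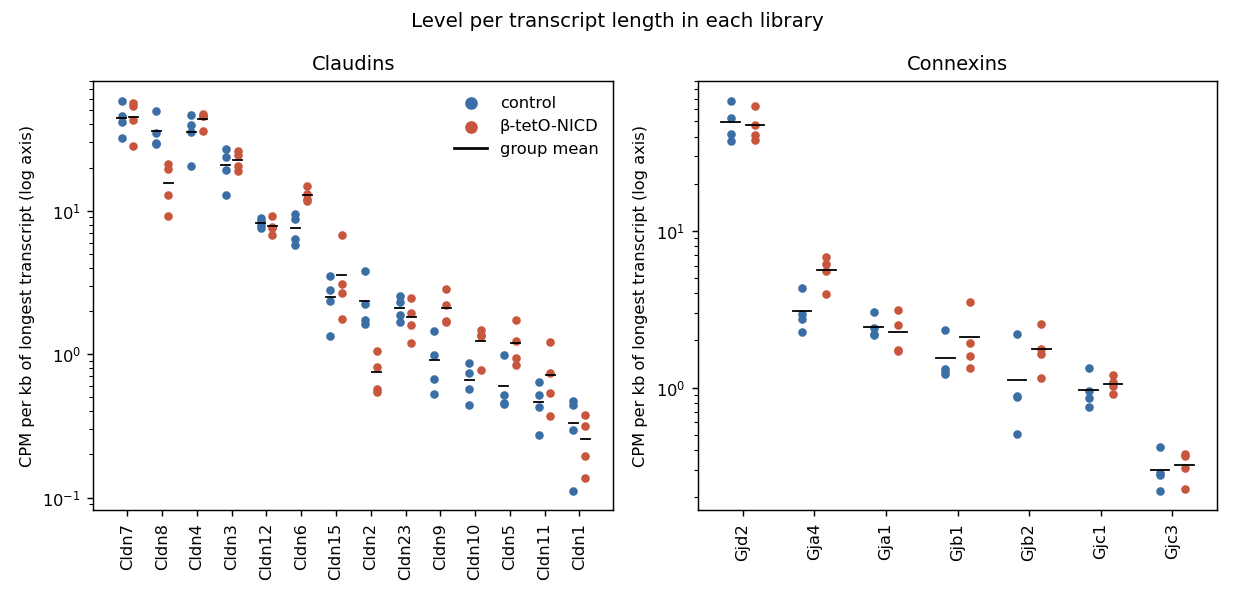
Level of claudins and connexins in CPM per kb of the longest annotated transcript (vertical log axis) in each library, with genes along the horizontal axis and points for control and β-tetO-NICD libraries. Cldn7, Cldn8 and Cldn4 lead the claudins in controls, and Gjd2 lies well above the other connexins in both groups.

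Polarity genes included 3 of the 5 members that fell. Of 8 rows, 7 were tested, Crb1, Pard3 and Pard3b fell, none rose, and 4 did not pass. The called share was 42.9%, beside 6.76% of all genes (2.57% lower). Crb1 encodes a large Crumbs membrane protein best known from the retina. It was at 8.85, 10.9, 6.53 and 8.16 CPM in controls and at 4.56, 1.35, 1.83 and 1.66 CPM in β-tetO-NICD libraries. The groups did not overlap, and β-tetO-NICD library 1 was the highest of its group. Means of 8.62 ± 1.83 and 2.35 ± 1.49 CPM (SD, n = 4) differed 3.67-fold (log2 fold change -1.88, SE 0.38, adjusted p = 0.0209). Crb1 lies at chr1:139197056-139377100 on the minus strand.

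Pard3 is the scaffold of the PAR complex, which binds Par6 and atypical protein kinase C. It was at 74.1, 53.6, 50.1 and 63.2 CPM in controls and at 45.5, 29.7, 31.2 and 21.1 CPM in β-tetO-NICD libraries, again without overlap. The mean fell 1.89-fold from 60.3 ± 10.8 to 31.9 ± 10.1 CPM (SD, n = 4; log2 fold change -0.92, SE 0.23, adjusted p = 0.0454). The gene is at chr8:127063893-127612286 on the plus strand. Its paralogue Pard3b (chr1:61638824-62642284, plus strand) was at 15.4, 12.2, 8.15 and 14.7 CPM and at 8.13, 4.10, 6.14 and 3.53 CPM. The lowest control and the highest β-tetO-NICD library were nearly level. Pard3b fell 2.30-fold, from 12.6 ± 3.27 to 5.47 ± 2.09 CPM (SD, n = 4; log2 fold change -1.20, SE 0.30, adjusted p = 0.0452). With the transcript length offset its log2 fold change was -0.73. Transcripts of other genes hold 4.79% of its 31-base words, and the antisense gene Pard3bos1 shares the most.

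The remaining polarity members did not pass. Crb3, the Crumbs protein of most epithelia, was at 24.2, 17.99, 30.8 and 17.9 CPM in controls and at 25.1, 32.3, 33.1 and 44.4 CPM in β-tetO-NICD libraries (log2 fold change 0.57, SE 0.23, adjusted p = 0.132). Pard6a, an adaptor between PAR-3 and atypical protein kinase C, was at 10.5, 9.59, 15.0 and 9.54 CPM and at 9.17, 13.5, 12.2 and 15.6 CPM (log2 fold change 0.18, SE 0.22, adjusted p = 0.581). Pard6b and Pard6g had log2 fold changes of -0.24 and 0.21. Crb2 had at most 12 counts in any library and was not tested.

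**Figure D3:**
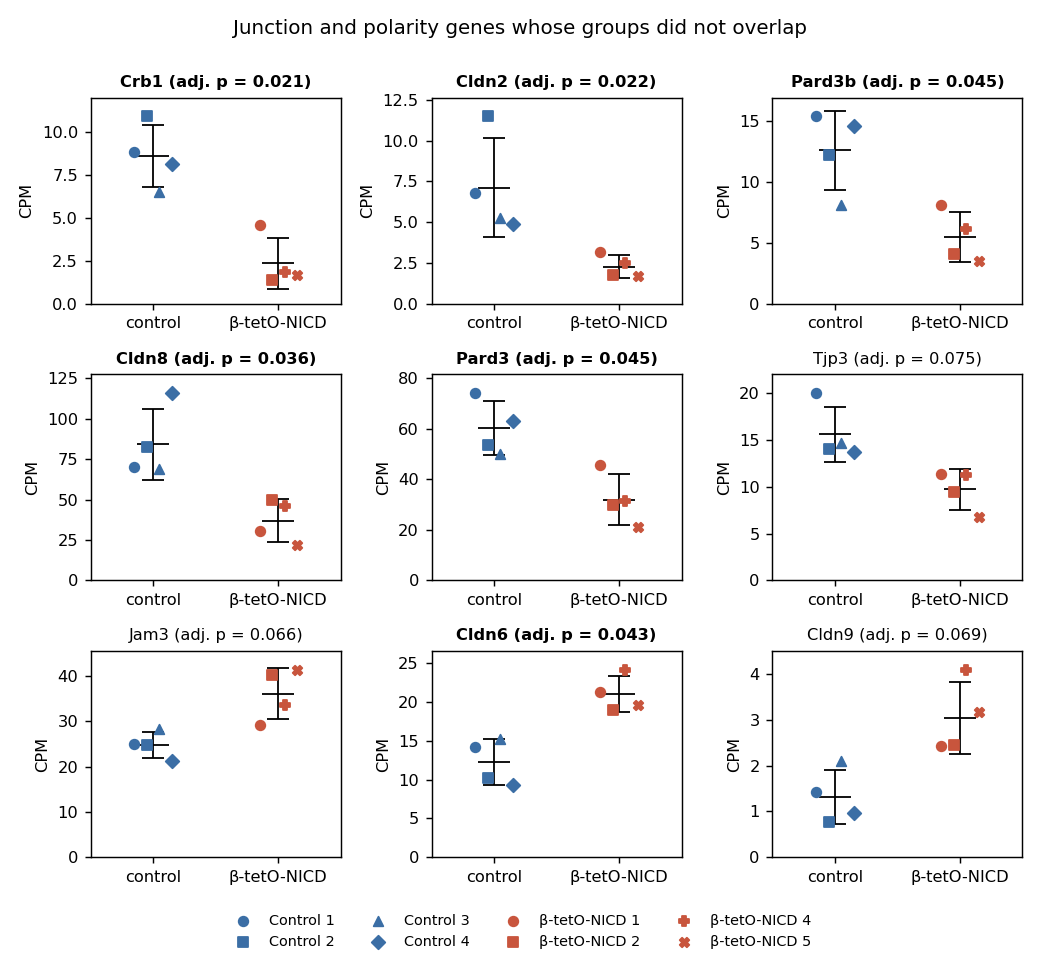
CPM (vertical axis, from 0) in each of the 4 control and 4 β-tetO-NICD libraries for the 9 tested members whose groups did not overlap. Cldn2, Cldn8, Tjp3, Crb1, Pard3 and Pard3b are lower in every β-tetO-NICD library than in any control, and Cldn6, Cldn9 and Jam3 are higher.

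The stretches upstream of 3 of the called genes are shown because their promoter windows hold letters searched for below, inside the stretch for Crb1 and past its end for Cldn2 and Cldn6. Each is from the RefSeq window of 250 bases before to 50 after the start site (GRCm38.p6), kept to the bases before both the RefSeq start site and the first GENCODE M21 start of the gene, and is given 5′ to 3′ on the gene's strand, with the CACGTG of Crb1 in capitals. They are chrX:139800558-139800807 (plus strand) for Cldn2, chr17:23679115-23679248 (plus strand) for Cldn6 and chr1:139377101-139377326 (minus strand) for Crb1.
Cldn2: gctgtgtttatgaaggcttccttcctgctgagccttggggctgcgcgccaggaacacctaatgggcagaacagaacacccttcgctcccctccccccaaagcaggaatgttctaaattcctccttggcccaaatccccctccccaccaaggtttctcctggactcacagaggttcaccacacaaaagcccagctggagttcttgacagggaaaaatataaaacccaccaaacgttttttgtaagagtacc
Cldn6: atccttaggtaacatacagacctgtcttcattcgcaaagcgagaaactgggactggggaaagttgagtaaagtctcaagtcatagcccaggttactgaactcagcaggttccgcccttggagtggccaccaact
Crb1: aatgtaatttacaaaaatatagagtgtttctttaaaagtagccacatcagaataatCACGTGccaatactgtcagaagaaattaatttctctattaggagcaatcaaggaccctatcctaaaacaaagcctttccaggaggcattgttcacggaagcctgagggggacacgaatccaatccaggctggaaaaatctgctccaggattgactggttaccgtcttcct

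NICD acts on DNA through RBPJ, whose core site is read as TGGGAA, and Hes and Hey repressors bind letters such as CACGTG, an E-box, and CACGCG. Windows were in the RefSeq table for 30 of the 41 tested members and for 5 of the 6 past the threshold (Cldn8 has none). On either strand, TGGGAA was in 30.2% of the members' 43 windows and in 25.6% of all 32851 windows, CACGTG in 13.95% and 7.15%, and CACGCG in 4.65% and 9.27%. Among the 5 genes, TGGGAA was found in Cldn2 and Cldn6 and CACGTG in Crb1. The motifs are in capitals in 30-base stretches from chrX:139800825-139800854 (plus strand) for Cldn2, which holds the reverse complement TTCCCA, chr17:23679247-23679276 (plus strand) for Cldn6 and chr1:139377253-139377282 (minus strand) for Crb1. A letter match is not a binding site, and binding was not measured.
Cldn2: ccaagggtttcaTTCCCAtctgtaagaagg
Cldn6: ctaagggaacttTGGGAAacgcacgcaggt
Crb1: catcagaataatCACGTGccaatactgtca

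Connexins gave no call among 8 tested of 19 rows in the edgeR test, with 6 positive and 2 negative log2 fold changes and a median of 0.29. At an unadjusted p under 0.05 there was 1 (Gja4), which DESeq2 also called. In all 8 the groups overlapped. Over all tested genes, 6.76% passed in edgeR and 16.1% had no overlap between the groups. Gjd2 was at 196, 152, 120 and 107 CPM in controls and at 181, 117, 137 and 110 CPM in β-tetO-NICD libraries. The ranges nearly coincided, with means of 144 ± 39.4 and 136 ± 32.0 CPM (SD, n = 4; log2 fold change -0.08, SE 0.23, adjusted p = 0.836). Per kb of transcript, Gjd2 made up 82.5% ± 2.46 of the summed connexin level in controls and 76.2% ± 3.84 in β-tetO-NICD islets (SD, n = 4). Gja1, which encodes the widely expressed connexin 43, was at 9.32, 11.7, 8.59 and 8.44 CPM and at 9.74, 6.77, 6.64 and 12.1 CPM (log2 fold change -0.11, SE 0.23, adjusted p = 0.756). Gja4, which encodes the endothelial connexin 37, was at 4.61, 7.26, 3.80 and 4.99 CPM and at 6.70, 11.5, 9.33 and 10.3 CPM (log2 fold change 0.87, SE 0.25, adjusted p = 0.0642). Summed CPM of 10 endothelial marker genes, none of which passed, was 562 to 904 in controls and 770 to 887 in β-tetO-NICD islets.

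For 4 other tested connexins, levels were between 0.876 and 6.13 CPM and log2 fold changes between 0.09 (Gjc3) and 0.68 (Gjb2). Gjb1, which encodes connexin 32 and is known from acinar and liver cells, was highest in control 1 (3.69 CPM) and β-tetO-NICD library 1 (5.61 CPM), the library of each group with the highest mean log2 level of acinar marker genes. Gja5, which encodes connexin 40 and had at most 17 counts, led 10 of the untested connexins. The pannexins, which form channels in the membrane of single cells, gave no call in edgeR or DESeq2, with 0 at an unadjusted p under 0.05. Panx1 averaged 6.18 ± 1.71 and 6.62 ± 1.52 CPM and Panx2 9.70 ± 2.17 and 10.4 ± 1.48 CPM (SD, n = 4), both with log2 fold changes of 0.10.

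None of the 4 plaque genes passed in edgeR, although Cgn and Tjp3 had an unadjusted p under 0.05 and DESeq2 called Tjp3. Tjp1, which encodes ZO-1, was at 139, 127, 62.4 and 128 CPM in controls and at 114, 32.3, 53.2 and 19.7 CPM in β-tetO-NICD libraries. Control 3 stood below the other controls, and β-tetO-NICD library 1 was above the others of its group (log2 fold change -1.06, SE 0.48, adjusted p = 0.165). Without β-tetO-NICD library 1, the log2 fold change of Tjp1 was -1.70 and the adjusted p from edgeR 0.0104, and over all 23 alternatives the adjusted p ran from 0.00365 to 0.701. Tjp3 (ZO-3) was at 20.02, 14.1, 14.7 and 13.7 CPM in controls and at 11.4, 9.43, 11.3 and 6.80 CPM in β-tetO-NICD libraries. Its groups did not overlap, with a log2 fold change of -0.68 (SE 0.21, adjusted p = 0.0747). Cgn, which encodes cingulin, was at 58.3, 52.5, 45.4 and 56.1 CPM and at 86.8, 79.8, 89.2 and 49.9 CPM (log2 fold change 0.53, SE 0.19, adjusted p = 0.111). With the length offset the log2 fold change of Cgn was 0.75 and it passed in edgeR (adjusted p = 0.0137, within 0.0137 to 0.527 over the alternatives). Of its 31-base words, 21.6% occur in transcripts of other genes, BC021767 sharing the most, so that its counts are uncertain.

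Among the other membrane proteins of tight junctions, 0 of 6 passed in edgeR, and Jam3 alone had an unadjusted p under 0.05 and was called by DESeq2. F11r, which encodes JAM-A, was at 62.3, 54.1, 61.9 and 52.7 CPM in controls and at 59.0, 63.0, 52.8 and 58.4 CPM in β-tetO-NICD libraries, a difference near 0 (log2 fold change 0.01, SE 0.13, adjusted p = 0.952). Jam3 was at 24.9, 24.7, 28.3 and 21.1 CPM and at 29.3, 40.2, 33.7 and 41.3 CPM. Its groups did not overlap (log2 fold change 0.54, SE 0.16, adjusted p = 0.0663), but 32.2% of its 31-base words occur in transcripts of other genes, Gm48796 sharing the most, and its counts are uncertain. Marveld3, a relative of occludin, was at 32.2, 28.8, 31.5 and 22.3 CPM and at 24.2, 20.5, 26.3 and 27.3 CPM (log2 fold change -0.23, SE 0.16, adjusted p = 0.344). Ocln, Marveld2 and Jam2 had log2 fold changes from -0.47 (Ocln) to -0.13 (Jam2), none of which passed.

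Of 39 other junction and polarity genes listed, 38 had a row and 37 were tested. In β-tetO-NICD islets 2 rose and 0 fell, a share of 5.41% in edgeR beside 6.76% of all genes. At an unadjusted p under 0.05 there were 10 higher and 7 lower, beside 31.6% of all genes, and DESeq2 called 7 and 3, beside 18.2%. With the transcript length offset 6 were called higher and 1 lower in edgeR, beside 10.3%. Nectin3, an immunoglobulin-like adhesion protein of adherens junctions, was at 81.3, 75.0, 75.5 and 71.7 CPM in controls and at 164, 126, 151 and 132 CPM in β-tetO-NICD libraries. It rose from 75.9 ± 3.998 to 143 ± 17.4 CPM (SD, n = 4; log2 fold change 0.92, SE 0.14, adjusted p = 0.00523). Ildr2, of the family found at tricellular junctions, rose from 2.64 ± 0.732 to 7.02 ± 1.64 CPM (SD, n = 4; log2 fold change 1.41, SE 0.27, adjusted p = 0.0156). Mpp5 (PALS1) and Inadl (PATJ), which link Crumbs proteins to the tight junction, had log2 fold changes of -0.54 (adjusted p = 0.0935) and -0.58 (adjusted p = 0.153).

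Fold change varied with transcript length. Across the 41 members, Spearman's rho between the log2 fold change and longest transcript length was -0.637, and across 14659 genes it was -0.486. These are correlations across genes of the same 8 libraries, given with no test. Crb1 (6135 bases), Pard3 (5815 bases) and Pard3b (8392 bases) are among the longer members, whose lengths run from 1206 bases (Crb3) with a median of 2879. With the length offset, rho was -0.299 for the members and 0.00393 for all genes. Cldn2, Cldn8, Crb1, Pard3 and Pard3b stayed past the threshold in that fit, with log2 fold changes of -1.67, -1.36, -1.62, -0.64 and -0.73, whereas Cldn6 did not pass. Beside the 6 members called in that fit, 10.3% of all genes passed.

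**Figure D4:**
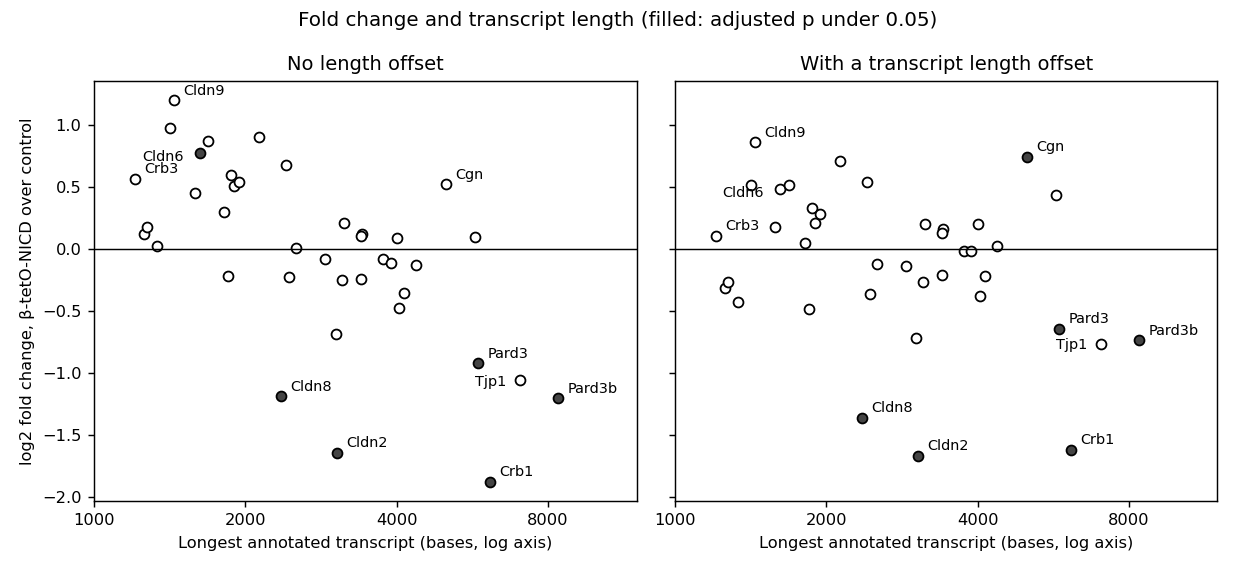
Log2 fold change (vertical axis) against the longest annotated transcript in bases (horizontal log axis) for 39 of the 41 tested members, without and with the length offset, filled where the adjusted p was under 0.05. Long members lie lower without the offset than with it (rho -0.637 and -0.299 over all 41), and Pard3b moves from -1.20 to -0.73.

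Leaving out single libraries kept the sign of all 6 called members but not their calls. The log2 fold change of Crb1 ran from -2.41 to -1.68 over the 8 fits and passed in 2, without β-tetO-NICD library 1 and without control 3. Cldn8 (-1.36 to -0.99), Cldn6 (0.67 to 0.90) and Pard3b (-1.45 to -1.04) passed in the same 2 fits, Cldn2 (-1.84 to -1.31) also without control 4, and Pard3 (-1.14 to -0.76) only without β-tetO-NICD library 1. In that last fit 13 members passed, 5 higher and 8 lower, beside 33.2% of all tested genes.

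**Figure D5:**
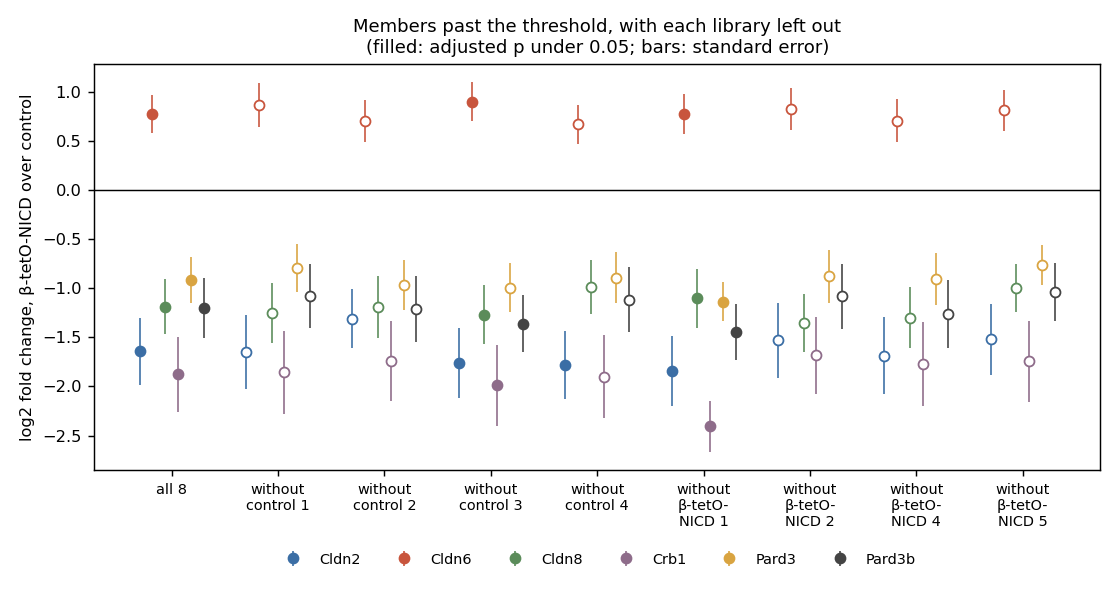
Log2 fold change with standard error (vertical axis) of the 6 members past the threshold, coloured by gene and filled where the adjusted p was under 0.05. The horizontal axis gives the fit, with all 8 libraries or with each library left out. No point changes sign, and the filled points without a library are 3 for Cldn2, 2 each for Crb1, Cldn8, Cldn6 and Pard3b, and 1 for Pard3.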

How the data were processed

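Islet RNA of 4 control and 4 β-tetO-NICD mice was sequenced as stranded poly(A) libraries. The authors pseudoaligned reads with kallisto to GRCm38 (also given as mm10) and deposited whole-number gene counts, not normalized. The kallisto version, annotation release and rounding are not given in the sources used here. A deposited table of the authors' limma comparison (fold changes and p-values) was not used. Column names placed every control, and β-tetO-NICD 1 and 2, with a single labelled mouse. β-tetO-NICD columns 4 and 5 were placed in the group only, since its mice are labelled 1 to 4. No pair within a group agreed within sampling noise (chi-square per gene at least 31.5). P values set the group difference against the spread between libraries of these mice, in which mouse and library differences cannot be told apart.

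The analysis used edgeR 4.0.16 under R 4.3.3 (at least 10 counts in at least 4 of 8 libraries, TMM, quasi-likelihood test, Benjamini-Hochberg adjusted p under 0.05 over 15082 genes). Standard errors are the log2 fold change over the square root of F. Totals of 21701223 to 26413146 counts per library put 3 counts at 0.0995 to 0.151 CPM. Every library's value is given for members past the threshold, those without overlap between groups and the 3 with the most counts in each role. The members and gene lists were chosen with earlier results of these data known, although the rule itself uses symbols only. Lengths and coordinates are from GENCODE M21 on GRCm38, with which 97.2% of tested genes matched, and shared 31-base words were counted over its transcripts. Alternatives were DESeq2 1.42.0, limma-voom (limma 3.58.1), median-ratio and upper-quartile scaling, other count filters, removal of the 10 most abundant genes, acinar and Eif2s3y covariates, libraries without Eif2s3y counts, a transcript length offset, a replicate block and leave-one-out fits. The fit without control 3 and β-tetO-NICD library 1 was added after seeing the data. The fits were tested on simulated data. Some genes of these lists are counted but not reported here by name or value.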

Additional observations from a re-analysis of the deposited data

Results flagged for a closer look

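Among 78 sets of 4 libraries (39 members in each group), 7 held a library far from the other 3 by Dixon's ratio of the gap to the range, where chance gives about 1 in 20. In controls, control 1 was the highest for Gjb1 (3.69 CPM against 1.94 to 2.07, ratio 0.925) and for Tjp3 (20.02 CPM against 13.7 to 14.7, ratio 0.841). Control 2 was the highest for Cldn5 (1.39 CPM against 0.633 to 0.731, ratio 0.872). Control 3 was the lowest for Tjp1 (62.4 CPM against 127 to 139, ratio 0.850) and the highest for Pard6a (15.0 CPM against 9.54 to 10.5, ratio 0.831). In β-tetO-NICD islets, library 1 was the highest for Crb1 (4.56 CPM against 1.35 to 1.83, ratio 0.853) and library 4 the lowest for Cldn4 (65.0 CPM against 82.8 to 85.4, ratio 0.872).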

How the results depend on the processing

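Median-ratio and upper-quartile scaling, the stricter count filter, edgeR's own filter, limma-voom and removal of the 10 most abundant genes called the same 6 members. Without a count filter or with the acinar covariate, the call of Cldn6 was lost, leaving 0 higher and 5 lower, while its log2 fold change was 0.77 in both (adjusted p from edgeR 0.0537 and 0.0539). Upper-quartile scaling moved the median of all genes by 0.077 and made 70.7% of all calls higher, against 62.0%. DESeq2 called 11 members (5 higher, 6 lower) and 2739 genes (1495 higher, 1244 lower). The length offset called 1556 genes, 683 of them lower. With the Eif2s3y covariate, Cldn6 was the higher call, 3 members were called lower (Crb1, Pard3 and Tjp3, with 257 genes lower), and the calls of Cldn2, Cldn8 and Pard3b were lost at log2 fold changes of -1.62, -1.21 and -1.27 (adjusted p from edgeR 0.0507, 0.0705 and 0.0681). The 5 libraries without Eif2s3y counts gave 0 members, 0 in either direction, and 116 genes (85 higher, 31 lower). Without control 3 and β-tetO-NICD library 1, chosen after seeing the data, 15 of 42 tested members passed (5 higher, 10 lower). In that fit 6008 of 15197 tested genes passed (2981 higher, 3027 lower). With single libraries left out, 0 to 13 members passed (0 to 5 higher, 0 to 8 lower) and 319 to 4954 genes (222 to 2423 higher, 97 to 2531 lower), the lowest counts without β-tetO-NICD library 2 and the highest without β-tetO-NICD library 1.

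Only numbers 1 and 2 are settled for libraries of both groups. With the replicate block on these 4 libraries, 2 members passed (Cldn2 and Crb1, 0 higher and 2 lower) and 610 genes (340 higher, 270 lower). Without the block the same 4 libraries gave 0 members (0 higher, 0 lower; 6 at an unadjusted p under 0.05 in edgeR) and 51 genes (41 higher, 10 lower). Deviations of same-numbered libraries correlated at 0.276 and -0.0901, so the numbers were not taken to pair the mice.

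Members near 0 changed sign. In the libraries without Eif2s3y counts the log2 fold change was -0.023 for Cldn4, -0.33 for Cldn7, -0.10 for F11r, -0.14 for Pard6a and -0.089 for Panx2. With the length offset it was -0.42 for Cldn7, -0.12 for F11r and -0.26 for Pard6a, and F11r was at -0.011 with the acinar and -0.013 with the Eif2s3y covariate. With single libraries left out, Cldn7 ran from -0.10 to 0.20, F11r from -0.024 to 0.064, Gja1 from -0.30 to 0.011, Gjd2 from -0.24 to 0.12 and Panx1 from -0.054 to 0.25. The cause was not tested. No fold against a floor was needed. The count filter left 21 members without a test in the main fit, whereas the fit without a filter tested 56 members.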
